A study of Homo sapiens with 8 samples.

Results

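The genes described here are 37 genes of glycolysis and of the response to low oxygen, taken by symbol from the count tables of a study of PAGE4 in prostate cancer (PCa) cells. All 37 were among the 58828 genes of the tables, and 36 had enough counts to be tested. RNA-seq was done in 22RV1 and DU145 cells, 2 established human PCa lines, which carried either the empty pLVX-TetOne-Puro vector or the same vector with HA-tagged PAGE4, under a doxycycline-inducible promoter. All infected cells were selected with puromycin, with no single clone named, and received doxycycline, vector cells included. Cells of each line and construct were then given PBS or H2O2, labelled as 200 mM, for 12 h, to raise reactive oxygen species (ROS). Other experiments of the study used lower doses, and the unit of this one could not be checked here. This made 8 conditions with 1 library each. Every p-value and standard error below therefore rests on the spread between pairs of libraries, which the fits estimate partly from all genes together. For a gene whose pairs disagree, the standard error can thus be too small. The pairs differ in line, construct or treatment, so the spread between them also holds any difference of an effect between these. The rest of it may be technical, because nothing in the labels sets out separate cultures.

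Glycolysis splits glucose into pyruvate in the cytosol and yields ATP without oxygen. Its rate is set largely by glucose uptake, by hexokinase and by phosphofructokinase, and lactate dehydrogenase then turns pyruvate into lactate. Many of these genes are known targets of the hypoxia inducible factors (HIFs), in which an oxygen-sensitive alpha subunit, HIF-1α from HIF1A or HIF-2α from EPAS1, joins the stable subunit encoded by ARNT. With oxygen present, prolyl hydroxylases such as those from EGLN1 and EGLN3 mark the alpha subunits for breakdown, so HIF activity is controlled mostly at the protein level, which RNA counts do not show. The lines differ in androgen signalling, which 22RV1 cells keep and DU145 cells lack.

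Total counts were between 25482984 and 43310401 per library, the lowest in 22RV1 PAGE4 cells with H2O2. PAGE4 had 0 or 1 counts in the 4 vector libraries and 1001 to 1489 in the 4 PAGE4 libraries. The prostate kallikrein gene KLK2 had 14.3 to 71.6 CPM (counts scaled to a common library size with TMM factors) in 22RV1 cells and at most 0.111 CPM in DU145 cells, and the mesenchymal gene VIM had 413 to 498 CPM in DU145 cells against at most 22.7 in 22RV1 cells. Of the 5 markers listed for DU145 cells, VIM, S100A2 and CAV1 were higher there in all 4 matched pairs of libraries, and CD44 and LGALS1 were higher in 22RV1 cells in all 4. Of 7 markers of immune, endothelial and stromal cells, only COL1A1 reached 1 CPM in any library, with 5.77 to 27.1 CPM. With H2O2, the luminal prostate markers KLK2, KLK3 and TMPRSS2 all fell in 22RV1 cells. KLK2 went from 53.9 to 14.3 CPM in 22RV1 vector cells and from 71.6 to 21.3 CPM in 22RV1 PAGE4 cells, and the part of this change in the results below was not tested. The antioxidant genes HMOX1, TXNRD1, SRXN1, GCLM and NQO1 all rose with H2O2 in 22RV1 cells, whereas in DU145 cells GCLM and TXNRD1 rose, NQO1 fell, and HMOX1 and SRXN1 did not pass the test.

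HIFs bind DNA at the core of the hypoxia response element, which reads ACGTG or GCGTG. The promoters of the members were searched for the letters ACGTG alone, on both strands (ACGTG and CACGT, where CACGTG counts as a match on each strand). GCGTG was not searched. It is present in the HK2, ADM and EPAS1 windows printed below, and on the other strand in that of LDHA. RefSeq windows on GRCh38.p14, from 250 bases before to 50 bases after a transcription start, were found for 33 of the 37 genes. The letters were in 22 of their 60 windows (36.7%), against 7518 of 35116 windows of all genes (21.4%). Counted by gene, 18 of 33 members (54.5%) had a match in at least 1 window, against 24.9% of all 27305 genes. Members had more windows per gene (60 for 33 genes, against 35116 for 27305), which raises the share counted by gene. SLC2A3, BNIP3L, VEGFA and NDRG1 had no window in the table. The windows of 5 genes are shown because their RNA moved in different ways with H2O2: HK2 and ANKRD37 rose in DU145 cells, LDHA fell in both lines, ADM rose in both and EPAS1 moved in opposite directions. Capitals mark the matched letters, all windows are on the plus strand, and for genes with several windows the one with the most matches is given. HK2 (chr2:74834920-74835219) held 4 matches, ANKRD37 (chr4:185396591-185396890) 3, LDHA (chr11:18394313-18394612) 5, and ADM (chr11:10304823-10305122) and EPAS1 (chr2:46297157-46297456) 0.
HK2: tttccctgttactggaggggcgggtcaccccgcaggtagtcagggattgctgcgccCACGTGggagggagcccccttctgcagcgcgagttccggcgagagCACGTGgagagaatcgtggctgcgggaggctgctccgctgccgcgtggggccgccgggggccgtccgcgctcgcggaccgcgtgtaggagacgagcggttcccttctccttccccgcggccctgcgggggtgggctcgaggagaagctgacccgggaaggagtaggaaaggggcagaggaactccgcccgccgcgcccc
ANKRD37: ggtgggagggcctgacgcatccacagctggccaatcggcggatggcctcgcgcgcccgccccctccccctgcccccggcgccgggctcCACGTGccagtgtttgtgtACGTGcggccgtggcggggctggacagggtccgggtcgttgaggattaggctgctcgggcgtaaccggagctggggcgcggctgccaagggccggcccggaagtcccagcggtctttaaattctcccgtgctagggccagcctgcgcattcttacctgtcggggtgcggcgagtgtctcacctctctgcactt
LDHA: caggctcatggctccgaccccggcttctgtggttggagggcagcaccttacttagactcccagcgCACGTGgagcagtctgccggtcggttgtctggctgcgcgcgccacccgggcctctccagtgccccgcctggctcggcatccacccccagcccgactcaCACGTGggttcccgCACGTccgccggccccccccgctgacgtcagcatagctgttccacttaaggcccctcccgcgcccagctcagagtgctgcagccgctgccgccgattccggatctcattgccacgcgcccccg
ADM: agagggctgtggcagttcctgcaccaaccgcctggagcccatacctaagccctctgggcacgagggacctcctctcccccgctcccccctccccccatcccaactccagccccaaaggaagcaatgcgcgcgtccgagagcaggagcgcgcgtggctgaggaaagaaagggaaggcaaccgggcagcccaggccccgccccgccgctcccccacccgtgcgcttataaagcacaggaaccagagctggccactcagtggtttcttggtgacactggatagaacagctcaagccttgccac
EPAS1: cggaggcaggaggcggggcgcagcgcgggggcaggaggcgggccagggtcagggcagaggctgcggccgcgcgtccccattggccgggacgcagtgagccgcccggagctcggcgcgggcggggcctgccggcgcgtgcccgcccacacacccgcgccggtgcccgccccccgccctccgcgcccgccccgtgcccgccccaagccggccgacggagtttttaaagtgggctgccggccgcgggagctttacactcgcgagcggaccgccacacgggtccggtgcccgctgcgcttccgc
Of the members with a window, 3 of those that rose in DU145 cells with H2O2 held a match and 1 did not, and of those that fell 9 held a match and 7 did not. In 22RV1 cells, 2 of those that rose held a match and 5 did not, and of those that fell 5 held a match and 4 did not. Of the members that were not called, 5 held a match and 7 did not in DU145 cells, and 10 and 6 in 22RV1 cells. A match in such a window is not evidence of binding, and its absence says nothing of the unsearched form GCGTG or of sites elsewhere.

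VEGFA lies at chr6:43770184-43786487, ADM at chr11:10305073-10307397, HK2 at chr2:74834127-74893359, PFKP at chr10:3066333-3137718, HIF1A at chr14:61695513-61748259 and EPAS1 at chr2:46293667-46386697 in the GENCODE annotation of GRCh38. The annotation behind the counting is not given in the sources used here.

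The first question was how H2O2 acted on these genes over both lines. Across the 4 pairs of H2O2 and PBS libraries, 3 members rose and 5 fell by edgeR's quasi-likelihood test at an adjusted p under 0.05, against 10.2% of all 19784 tested genes that rose and 12.7% that fell. VEGFA, the main growth factor for new blood vessels, rose the most clearly. In 22RV1 cells it had 75.9 CPM with PBS and 169 CPM with H2O2 in vector cells, and 76.7 and 145 CPM in PAGE4 cells. In DU145 cells it had 141 CPM with PBS and 331 CPM with H2O2 in vector cells, and 171 and 340.2 CPM in PAGE4 cells. All H2O2 libraries of a line were above both of its PBS libraries, and the log2 fold change was 1.08 ± 0.09 (SE, adjusted p = 0.000932). ADM, which encodes the vasodilator peptide adrenomedullin, rose by 1.29 ± 0.37 (adjusted p = 0.0409), and by 0.84 without the 22RV1 vector pair. PFKFB3, the kinase that makes the phosphofructokinase activator fructose 2,6-bisphosphate, rose by 0.42 ± 0.11 (adjusted p = 0.0307). The genes that fell were PFKL and PFKM, the liver and muscle forms of phosphofructokinase, and LDHA and LDHB, the subunits of lactate dehydrogenase. Also lower was PDK1, a kinase that limits the use of pyruvate inside the mitochondria. PFKL fell by 0.68 ± 0.08 (adjusted p = 0.00286), and the others by 0.36 to 0.43. The median of the 36 members was -0.13, beside -0.04 over all genes. Only VEGFA and PFKL kept their call whichever pair was left out, and 3 members were left without the 22RV1 vector pair or without the DU145 vector pair. Over all genes the calls then numbered 2300 and 1982, in place of 4545. In bulk RNA, fewer cells with a transcript and less of it per cell cannot be told apart.

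**Figure D1:**
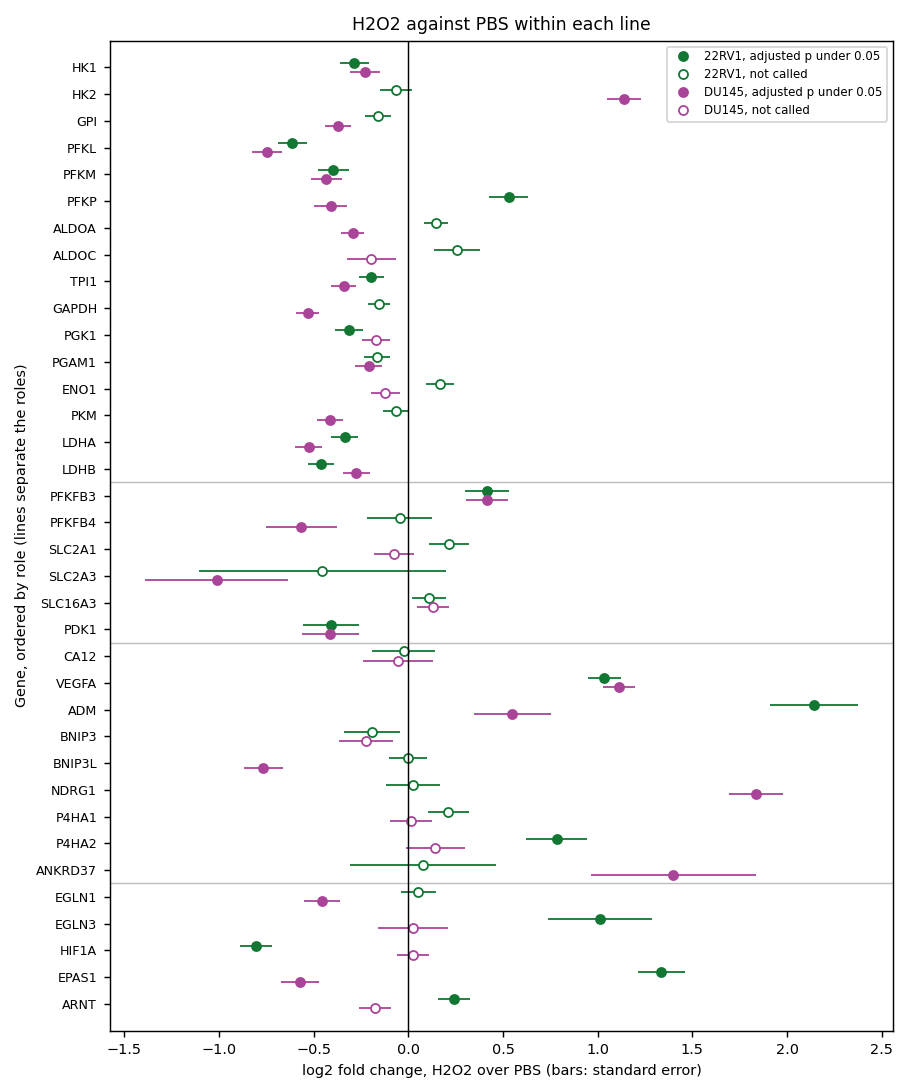
Log2 fold change of H2O2 over PBS for the 36 tested genes in 22RV1 (green) and DU145 (purple) cells; points are estimates of edgeR's fit over 2 pairs per line, bars are standard errors, and filled points have an adjusted p under 0.05. Most glycolytic enzymes lie left of 0 in DU145 cells, VEGFA and ADM lie right of 0 in both lines, and HK2, NDRG1, HIF1A and EPAS1 stand apart between the lines.

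Fitted within each line, the H2O2 response of the members was larger in number. In 22RV1 cells 17 members changed, 8 higher and 9 lower, against 12.8% higher and 14.9% lower among 22418 tested genes. In DU145 cells 24 changed, 6 higher and 18 lower, against 16.9% and 19.8%. The balance in 22RV1 cells depended on the scaling. Without TMM, on total counts, 13 members were higher and 5 lower there. This scaling moved the median of all genes to 0.12 from 0.00 on the log2 scale. For DU145 cells it gave 6 higher and 14 lower. Of the 36 members, 12 were called in both lines. PFKFB3, VEGFA and ADM rose in both, HK1, PFKL, PFKM, TPI1, LDHA, LDHB and PDK1 fell in both, and PFKP and EPAS1 moved in opposite directions. ALDOC, ENO1, SLC2A1, SLC16A3, CA12, BNIP3 and P4HA1 were called in neither line. The shares of all genes called in both lines or in neither were not computed, so these counts only describe the members.

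The 16 glycolytic enzymes fell more often than they rose. In DU145 cells 12 fell and 1 rose, and 15 of the 16 had lower levels with H2O2 in both pairs, as had 39.6% of all 22418 genes. GAPDH, which makes 1,3-bisphosphoglycerate and is often taken as a stable reference gene, had 3131 CPM with PBS and 2202 CPM with H2O2 in vector cells, and 3174 and 2159 CPM in PAGE4 cells of DU145. Both of its H2O2 libraries in DU145 were below both PBS libraries, a log2 fold change of -0.53 ± 0.06 (adjusted p = 2.15e-06). In 22RV1 cells GAPDH ranged from 2483 to 2922 CPM over the 4 libraries and did not pass the test (-0.16 ± 0.06). In DU145 cells PKM, the pyruvate kinase gene, had 2865 CPM with PBS and 2236 CPM with H2O2 in vector cells, and 2944 and 2129 CPM in PAGE4 cells, a fall of 0.41 (adjusted p = 0.000122). ALDOA, the main aldolase, fell by 0.29 and GPI, which isomerises glucose 6-phosphate, by 0.37 in DU145 cells. PGAM1, a phosphoglycerate mutase, fell by 0.21 there, a call lost without either DU145 pair or on total counts. ALDOA had 1965 CPM with PBS and 1630.4 CPM with H2O2 in vector cells, and 2068 and 1658 CPM in PAGE4 cells. GPI had 729.7 CPM with PBS and 589.8 CPM with H2O2 in vector cells, and 801 and 591 CPM in PAGE4 cells. PGAM1 had 564 CPM with PBS and 484 CPM with H2O2 in vector cells, and 547 and 476 CPM in PAGE4 cells. In each of these DU145 pairs the H2O2 library was the lower. In 22RV1 cells the estimates were 0.14 ± 0.06 for ALDOA, -0.16 ± 0.07 for GPI, -0.17 ± 0.07 for PGAM1 and -0.07 ± 0.07 for PKM, and none of them passed.

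In 22RV1 cells 7 of the 16 enzymes fell and 1 rose. There PFKL had 284 CPM with PBS and 180.2 CPM with H2O2 in vector cells, and 299 and 201 CPM in PAGE4 cells. In DU145 cells PFKL had 159 CPM with PBS and 90.3 CPM with H2O2 in vector cells, and 153 and 95.9 CPM in PAGE4 cells. It was lower with H2O2 in all 4 pairs, with log2 fold changes of -0.61 ± 0.08 in 22RV1 and -0.75 ± 0.08 in DU145 (adjusted p = 1.31e-05 and 1.08e-06). In 22RV1 cells LDHA, whose product favours lactate formation, had 584 CPM with PBS and 472 CPM with H2O2 in vector cells, and 612 and 474 CPM in PAGE4 cells. In DU145 cells LDHA had 739.9 CPM with PBS and 486 CPM with H2O2 in vector cells, and 639 and 468 CPM in PAGE4 cells. The H2O2 libraries were below the PBS libraries in each line, with falls of 0.34 in 22RV1 (adjusted p = 0.00141) and 0.53 in DU145 cells (adjusted p = 1.20e-05).

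LDHB, whose product favours the return of lactate to pyruvate, fell by 0.46 in 22RV1 and 0.27 in DU145 cells. Its 22RV1 levels were 529 CPM with PBS and 388 CPM with H2O2 in vector cells, and 711 and 512 CPM in PAGE4 cells, and the H2O2 library was the lower in each pair. Its DU145 levels were 576 CPM with PBS and 454 CPM with H2O2 in vector cells, and 533 and 463 CPM in PAGE4 cells, with the same order in each pair. PFKM fell by 0.40 in 22RV1 and 0.43 in DU145 cells. In DU145 cells it had 115 CPM with PBS and 84.1 CPM with H2O2 in vector cells, and 106 and 79.8 CPM in PAGE4 cells, and the treatments did not overlap. TPI1, the triose phosphate isomerase, fell by 0.20 in 22RV1 and 0.34 in DU145 cells. In 22RV1 cells it had 1196 CPM with PBS and 1087 CPM with H2O2 in vector cells, and 1288 and 1079 CPM in PAGE4 cells. In DU145 cells TPI1 had 725 CPM with PBS and 549 CPM with H2O2 in vector cells, and 722 and 593 CPM in PAGE4 cells, and in both lines the H2O2 libraries were below the PBS libraries. HK1, the ubiquitous hexokinase, fell by 0.29 in 22RV1 and 0.23 in DU145 cells. In 22RV1 cells it had 302 CPM with PBS and 235 CPM with H2O2 in vector cells, and 304 and 263 CPM in PAGE4 cells. In DU145 cells HK1 had 134 CPM with PBS and 117 CPM with H2O2 in vector cells, and 147 and 123 CPM in PAGE4 cells, again with every H2O2 library below the PBS libraries of its line. PGK1, the first ATP-making enzyme of the pathway, fell by 0.31 in 22RV1 cells (adjusted p = 0.00369), where it had 349.9 CPM with PBS and 291 CPM with H2O2 in vector cells, and 402 and 313 CPM in PAGE4 cells, and was at -0.17 ± 0.07 in DU145 cells, where it did not pass. The 22RV1 calls of HK1 and TPI1 were lost on total counts, as was that of PGK1, and the 22RV1 call of HK1 also without the vector pair and that of TPI1 without the PAGE4 pair. The DU145 call of HK1 was lost without either DU145 pair and on total counts, and that of LDHB without the vector pair.

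Against this direction, HK2 rose in DU145 cells. HK2 encodes the inducible, mitochondria-bound hexokinase of many tumours. In DU145 cells it had 54.2 CPM with PBS and 129 CPM with H2O2 in vector cells, and 59.3 and 121 CPM in PAGE4 cells, more than 2-fold higher in both pairs, and the log2 fold change was 1.14 ± 0.09 (adjusted p = 3.34e-08). In 22RV1 cells HK2 ranged from 145 to 159 CPM, with a log2 fold change of -0.07 ± 0.08. The ratio of HK2 to HK1 counts, which no scaling of a library changes, went from 0.405 to 1.11 in DU145 vector cells and from 0.403 to 0.985 in DU145 PAGE4 cells, and lay between 0.491 and 0.617 in 22RV1 cells. PFKP, the platelet form of phosphofructokinase, fell from 477 to 368 CPM in DU145 vector cells and from 443 to 324 CPM in DU145 PAGE4 cells, by 0.41 on the log2 scale (adjusted p = 0.00105). In 22RV1 cells, at a far lower level, it had 17.8 CPM with PBS and 29.4 CPM with H2O2 in vector cells, and 10.6 and 12.9 CPM in PAGE4 cells, a rise of 0.53 ± 0.10 (adjusted p = 0.000783) that was 0.27 and not called without the vector pair.

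**Figure D2:**
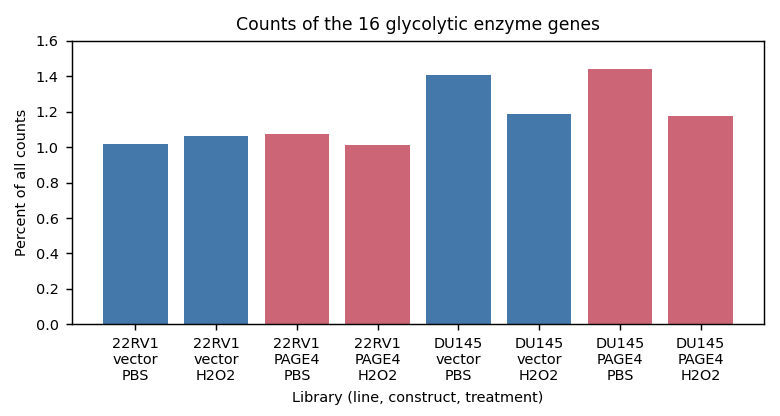
Counts of the 16 glycolytic enzyme genes as a percent of all counts in each of the 8 libraries (blue, vector; red, PAGE4). The share was 1.01% to 1.08% in 22RV1 cells with or without H2O2, and in DU145 cells it was 1.41% and 1.44% with PBS and 1.19% and 1.17% with H2O2. On the TMM scale, not drawn here, the sum was lower with H2O2 in both 22RV1 pairs too.

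Added up, the 16 enzymes took 1.41% and 1.44% of all counts in the DU145 libraries with PBS and 1.19% and 1.17% in those with H2O2, so that the 2 treatments did not overlap. In 22RV1 cells the share lay between 1.01% and 1.08% in all 4 libraries, and the treatments overlapped. On the TMM scale they did not: the summed level in 22RV1 cells was 9860.1 CPM with PBS and 9438 CPM with H2O2 in vector cells, and 10527 and 9133 CPM in PAGE4 cells. In DU145 cells it was 15462 and 12420.4 CPM in vector cells and 15715 and 12326 CPM in PAGE4 cells. Between GAPDH, the highest member per kilobase of exon in both lines (1174 and 1113 CPM per kb, median of 4 libraries), and PFKP in 22RV1 cells (1.98 CPM per kb) the enzymes spanned a wide range of levels, and the most abundant ones weigh most in this sum.

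Among the regulators and transporters of glycolysis, PFKFB3 rose in both lines and PDK1 fell in both. In 22RV1 cells PFKFB3 had 24.0 CPM with PBS and 37.3 CPM with H2O2 in vector cells, and 22.2 and 25.2 CPM in PAGE4 cells. In DU145 cells PFKFB3 had 68.9 CPM with PBS and 101 CPM with H2O2 in vector cells, and 79.1 and 96.6 CPM in PAGE4 cells. It was higher with H2O2 in all 4 pairs. The log2 fold changes were 0.42 ± 0.12 (adjusted p = 0.0127) and 0.42 ± 0.11 (adjusted p = 0.00654), and they came down to 0.17 and 0.29, both not called, without the vector pair of the line. PFKFB4, a related enzyme, fell by 0.56 in DU145 cells (adjusted p = 0.0236) and was at -0.05 ± 0.17 in 22RV1 cells. PDK1 fell by 0.41 in 22RV1 cells (adjusted p = 0.0499) and by 0.41 in DU145 cells (adjusted p = 0.0384). In 22RV1 cells PDK1 had 13.9 CPM with PBS and 11.1 CPM with H2O2 in vector cells, and 15.1 and 10.8 CPM in PAGE4 cells. In DU145 cells PDK1 had 18.7 CPM with PBS and 13.6 CPM with H2O2 in vector cells, and 17.8 and 13.9 CPM in PAGE4 cells. All of its H2O2 libraries were below the PBS libraries of the line. In DU145 cells PFKFB4 had 10.5 CPM with PBS and 7.86 CPM with H2O2 in vector cells, and 11.6 and 7.09 CPM in PAGE4 cells, with the same order. The calls of PDK1, lost also on total counts, and the DU145 call of PFKFB4, did not hold when either pair of the line was left out. SLC2A1 and SLC2A3 encode the glucose carriers GLUT1 and GLUT3. SLC2A1 was at 0.21 ± 0.11 in 22RV1 and -0.07 ± 0.11 in DU145 cells and passed in neither. SLC2A3 was close to the limit of detection, with 4 to 9 counts per library in 22RV1 cells and 36 to 104 in DU145 cells. In DU145 cells its counts were 97 with PBS and 36 with H2O2 in vector cells and 104 and 57 in PAGE4 cells, a fall of 1.01 ± 0.38 (adjusted p = 0.0430), lost without either pair or on total counts. SLC16A3, which exports lactate, was higher with H2O2 in all 4 pairs but by little (0.11 ± 0.09 and 0.13 ± 0.08) and did not pass.

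**Figure D3:**
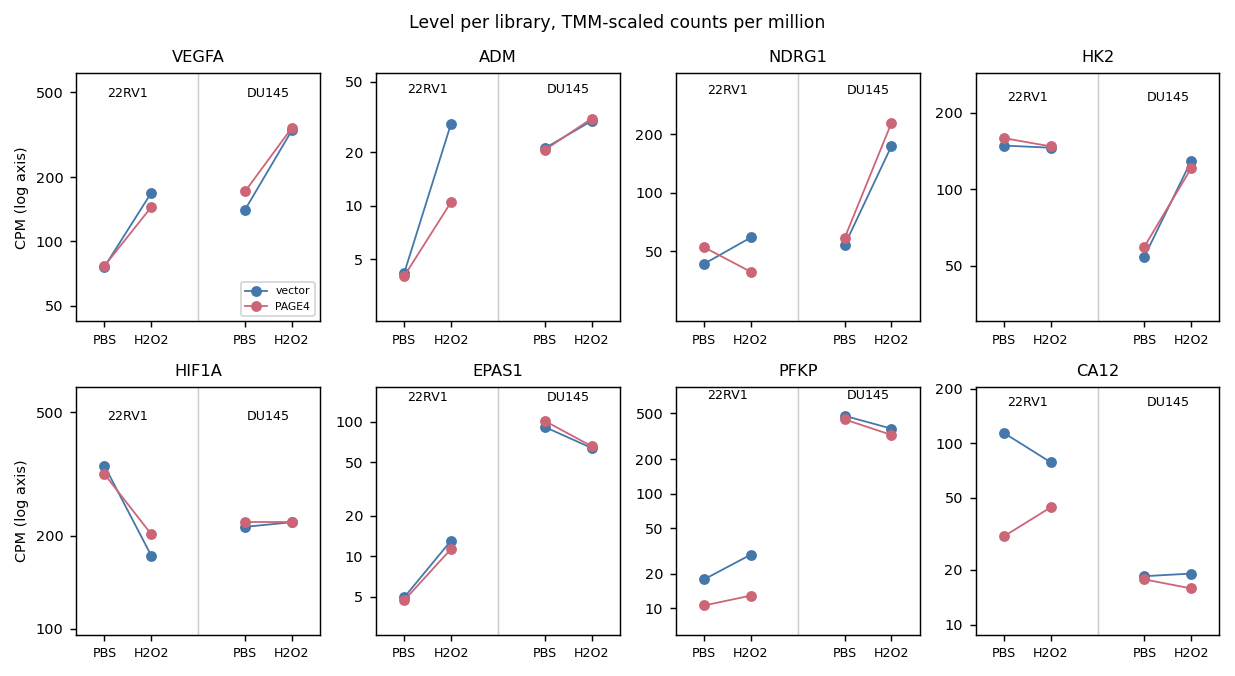
Levels of 8 genes in each of the 8 libraries, in TMM-scaled CPM on a log axis, with a line joining the PBS and the H2O2 library of each construct (blue, vector; red, PAGE4). VEGFA and ADM are higher with H2O2 in all 4 pairs, NDRG1 and HK2 are higher with H2O2 in both DU145 pairs, and HIF1A is lower and EPAS1 higher in both 22RV1 pairs.

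The other hypoxia targets rose or did not pass, apart from BNIP3L. In 22RV1 cells ADM had 4.17 CPM with PBS and 29.0 CPM with H2O2 in vector cells, and 4.02 and 10.5 CPM in PAGE4 cells. In DU145 cells it had 21.1 CPM with PBS and 30.1 CPM with H2O2 in vector cells, and 20.6 and 31.0 CPM in PAGE4 cells. All 4 pairs were higher with H2O2, by 2.14 ± 0.23 in 22RV1 (adjusted p = 2.32e-06) and by 0.55 ± 0.20 in DU145 cells (adjusted p = 0.0433, lost without either DU145 pair). Without the 22RV1 vector pair the 22RV1 value was 1.37, still called. VEGFA rose by 1.03 ± 0.09 in 22RV1 and 1.11 ± 0.09 in DU145 cells (adjusted p = 1.35e-07 and 3.70e-08), and the difference of these effects was -0.08 with a 95% interval of -0.34 to 0.18. NDRG1, a stress-responsive gene that is also androgen-regulated in prostate cells, showed an increase in DU145 cells, where it had 53.8 CPM with PBS and 175 CPM with H2O2 in vector cells, and 58.6 and 229.6 CPM in PAGE4 cells. It rose by 1.84 ± 0.14 in DU145 cells (adjusted p = 3.40e-08), with both H2O2 libraries above both PBS libraries. In 22RV1 cells NDRG1 had 43.2 CPM with PBS and 59.0 CPM with H2O2 in vector cells, and 52.6 and 39.3 CPM in PAGE4 cells. It was thus higher with H2O2 in vector cells and lower in PAGE4 cells, and the estimate was 0.02 ± 0.14. The log2 changes of these pairs, 0.45 and -0.42, lay further apart than this SE shows.

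ANKRD37, a small hypoxia-induced ankyrin repeat gene, had 18 counts with PBS and 42 with H2O2 in DU145 vector cells and 19 and 48 in DU145 PAGE4 cells. Its rise there was 1.40 ± 0.44 (adjusted p = 0.0176), and it was not called without either DU145 pair. In 22RV1 cells its counts were 63 and 86 in vector cells and 75 and 36 in PAGE4 cells, so the pairs pointed in different directions. ANKRD37 shares 40.3% of its exon length with UFSP2 on the opposite strand, and whether the counting used strand is not given in the sources used here. BNIP3 and BNIP3L encode related mitochondrial proteins that promote mitophagy. BNIP3L fell in DU145 cells from 58.6 to 33.4 CPM in vector and from 60.0 to 36.4 CPM in PAGE4 cells, by 0.77 (adjusted p = 1.49e-05), and ranged from 57.0 to 65.2 CPM in 22RV1 cells, where it did not pass. BNIP3 did not pass in either line, and its 39 listed pseudogenes carried counts equal to 2.79% to 25.9% of its own, so its level is uncertain. P4HA1 and P4HA2 encode the collagen prolyl hydroxylase alpha subunits. In 22RV1 cells P4HA2 had 8.77 CPM with PBS and 12.4 CPM with H2O2 in vector cells, and 6.86 and 14.6 CPM in PAGE4 cells, a rise of 0.78 ± 0.16 (adjusted p = 0.00144) that was 0.48 and not called without the PAGE4 pair. P4HA1 ranged from 34.9 to 41.7 CPM in 22RV1 and 33.0 to 35.8 CPM in DU145 cells.

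CA9 and CA12 encode carbonic anhydrases at the cell surface. CA9, which is used as a marker of hypoxia in tumours, had 0 to 4 counts in every library and was not tested, and it overlaps ARHGEF39 on the other strand over 35.7% of its exon length. At a floor of 3 counts, a change of CA9 was not detectable at this depth. CA12 was well expressed in 22RV1 cells, at 114 CPM with PBS and 78.4 CPM with H2O2 in vector cells, and 30.6 and 44.2 CPM in PAGE4 cells, and it was lower with H2O2 in vector cells and higher in PAGE4 cells. Its estimate with H2O2 was -0.03 ± 0.17 in 22RV1 and -0.06 ± 0.19 in DU145 cells. The log2 changes of the 22RV1 pairs, -0.54 and 0.53, lay further apart than this SE shows.

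The oxygen sensing genes moved differently in the lines. In 22RV1 cells HIF1A had 336 CPM with PBS and 172 CPM with H2O2 in vector cells, and 316 and 202 CPM in PAGE4 cells, and both H2O2 libraries lay below both PBS libraries (log2 fold change -0.80 ± 0.08, adjusted p = 1.46e-06). In DU145 cells its 4 libraries ranged from 213 to 221 CPM, at 0.03 ± 0.08. EPAS1 went the other way in 22RV1 cells, where it had 4.96 CPM with PBS and 13.1 CPM with H2O2 in vector cells, and 4.71 and 11.3 CPM in PAGE4 cells. It rose there by 1.34 ± 0.12 (adjusted p = 3.96e-07). In DU145 cells, which had far more of it, EPAS1 had 91.1 CPM with PBS and 63.6 CPM with H2O2 in vector cells, and 101 and 65.6 CPM in PAGE4 cells. It fell there by 0.57 ± 0.10 (adjusted p = 0.000222). The ratio of EPAS1 to HIF1A counts thus rose in 22RV1 cells from 0.0148 to 0.0759 (vector) and from 0.0149 to 0.0561 (PAGE4), and went down in DU145 cells from 0.427 to 0.288 and from 0.457 to 0.296.

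EGLN1, the main HIF prolyl hydroxylase, fell by 0.46 in DU145 cells (adjusted p = 0.00105), where it had 71.9 CPM with PBS and 52.2 CPM with H2O2 in vector cells, and 69.3 and 50.8 CPM in PAGE4 cells. In 22RV1 cells it was at 0.05 ± 0.09. EGLN3, a hydroxylase gene that is itself induced by HIF, had 56 counts with PBS and 141 with H2O2 in 22RV1 vector cells but 46 and 38 in 22RV1 PAGE4 cells. Its rise of 1.01 ± 0.27 in 22RV1 (adjusted p = 0.0102) came down to 0.21, not called, without the vector pair. EGLN3 ranged from 24.6 to 29.4 CPM in DU145 cells, with pairs in different directions (0.03 ± 0.19). In 22RV1 cells ARNT had 74.1 CPM with PBS and 86.0 CPM with H2O2 in vector cells, and 72.9 and 87.4 CPM in PAGE4 cells. ARNT rose by 0.24 in 22RV1 cells (adjusted p = 0.0453) and was at -0.18 ± 0.09 in DU145 cells, and the 22RV1 call was lost whichever of the 4 pairs was left out.

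The difference of the H2O2 response between the lines was then tested itself. Given as the effect in 22RV1 cells minus that in DU145 cells, it was called for 12 of the 36 members, against 16.3% of all 22418 genes. The response was higher in 22RV1 cells for 9: EPAS1, ADM, PFKP, BNIP3L, EGLN1, ALDOA, ARNT, GAPDH and PKM. It was lower for NDRG1, HK2 and HIF1A. EPAS1 had the largest difference, 1.91 ± 0.16 (adjusted p = 3.01e-07), and NDRG1 the largest in the other direction, -1.81 ± 0.20 (adjusted p = 8.13e-06). The differences of HK2 (-1.21 ± 0.12), HIF1A (-0.83 ± 0.12), PFKP (0.94 ± 0.13) and ADM (1.59 ± 0.31) came next among those of more than 0.8 on the log2 scale. ANKRD37 (-1.32 ± 0.58, adjusted p = 0.141) and EGLN3 (0.99 ± 0.33, adjusted p = 0.0511) were as large or larger than some of these but did not pass. Without the 22RV1 vector pair the difference of ADM was 0.78 and that of GAPDH 0.25, both still called, and DESeq2's Wald test did not call ADM, PKM or ARNT. The call of PKM was lost without the 22RV1 vector pair, where the difference was 0.17, and without the DU145 PAGE4 pair, and those of ARNT and EGLN1 without the 22RV1 PAGE4 pair or either DU145 pair.

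The next question was whether PAGE4 altered the members. No member changed with PAGE4 across the 4 pairs of PAGE4 and vector libraries, where 0.136% of 19784 genes were called. By edgeR, 2 members, PFKP and CA12, had an unadjusted p under 0.05, as had 1587 of the 19784 genes. DESeq2's Wald test also called 0 members. The H2O2 response differed between PAGE4 and vector cells for 0 members and 0 genes (0% of 22418) by edgeR, with 0 members and 59 genes at an unadjusted p under 0.05. DESeq2 again called 0 members. This fit had no term for an H2O2 response that differs by line, so such differences counted as its spread. For HK2 the SE was 0.51, beside 0.09 for its H2O2 effect in DU145 cells. The absence of calls therefore cannot show that PAGE4 and vector cells responded alike. The 95% intervals of the difference between PAGE4 and vector cells were wide for some genes. That of ADM ran from -2.39 to 1.06 and that of NDRG1 from -2.14 to 1.55, while that of VEGFA ran from -0.72 to 0.24 and that of LDHA from -0.46 to 0.56.

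**Figure D4:**
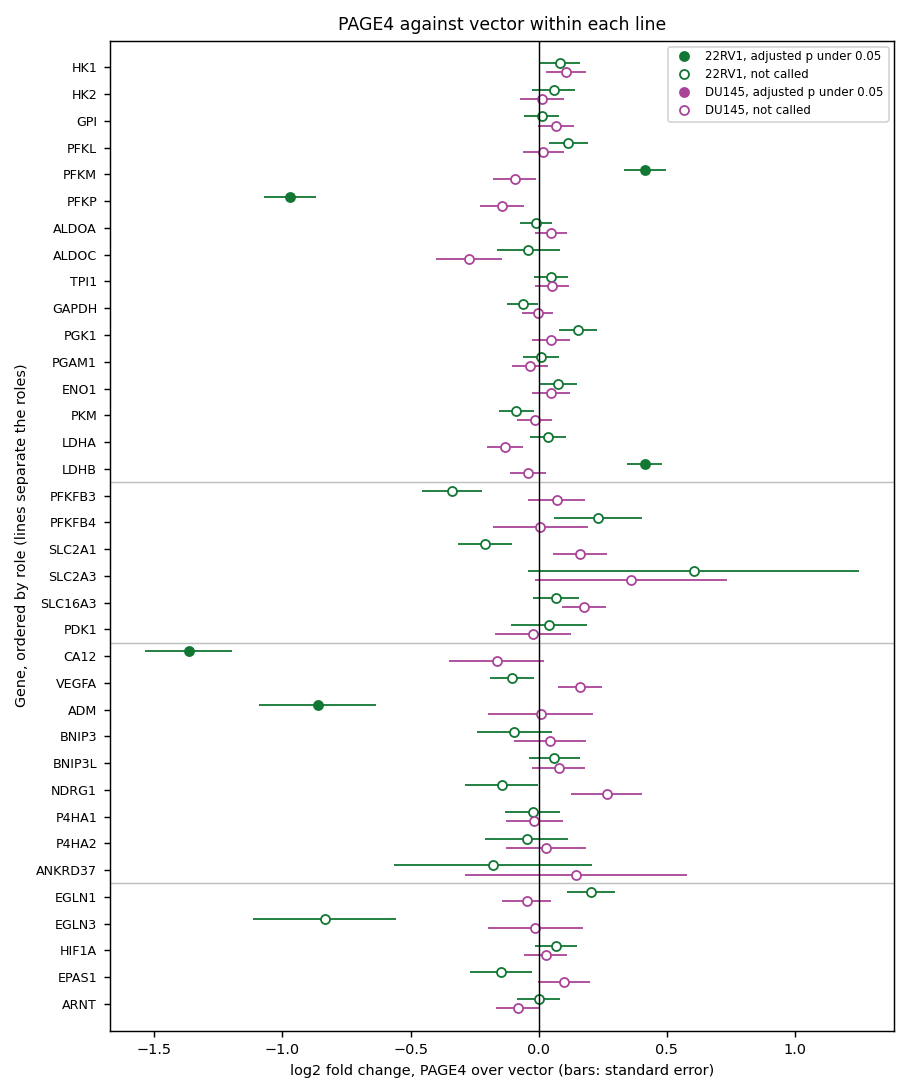
Log2 fold change of PAGE4 over vector for the 36 tested genes in 22RV1 (green) and DU145 (purple) cells; points are estimates over 2 pairs per line, bars are standard errors, and filled points have an adjusted p under 0.05. In 22RV1 cells PFKM and LDHB lie right of 0 and PFKP, CA12 and ADM left of it; no gene is called in DU145 cells.

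Within 22RV1 cells, 5 members differed between PAGE4 and vector cells, 2 higher and 3 lower, against 2.15% higher and 2.14% lower among all genes. The labels name 1 transduced population per line and construct, so an effect of PAGE4 cannot be told apart from other differences between these populations. PFKM was higher in PAGE4 cells, at 174 against 136 CPM with PBS and 138 against 99.0 CPM with H2O2 (0.41 ± 0.08, adjusted p = 0.00558). LDHB was higher at 711 against 529 CPM with PBS and 512 against 388 CPM with H2O2 (0.41 ± 0.07, adjusted p = 0.00134). The ratio of LDHA to LDHB was accordingly 1.10 and 1.22 in vector cells and 0.861 and 0.926 in PAGE4 cells. CA12 was lower in PAGE4 cells, at 30.6 against 114 CPM with PBS and 44.2 against 78.4 CPM with H2O2 (-1.36 ± 0.17, adjusted p = 6.80e-05), and the value was -0.81, still called, without the PBS pair. PFKP was lower as well (-0.97 ± 0.10, adjusted p = 1.16e-05), with both PAGE4 libraries below both vector libraries. ADM was lower by 0.86 ± 0.23 (adjusted p = 0.0389), but this came from the H2O2 libraries alone, and without that pair the value was -0.04 and not called. It was -1.45 without the PBS pair. Without the PBS pair a lone 22RV1 pair is left, so nothing is concluded from the number of members called in that fit.

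In DU145 cells no member was called with PAGE4, by edgeR or by DESeq2, where edgeR called 0.17% of all genes. By edgeR, 1 member had an unadjusted p under 0.05, as had 1685 of 22418 genes. The values of the 22RV1 members there were -0.09 ± 0.08 for PFKM, -0.04 ± 0.07 for LDHB, -0.16 ± 0.19 for CA12, -0.14 ± 0.09 for PFKP and 0.01 ± 0.20 for ADM. The difference of the PAGE4 effect between the lines was called for 4 members, against 1.84% of all genes. It was 0.51 ± 0.12 for PFKM (adjusted p = 0.0320), 0.46 ± 0.10 for LDHB (adjusted p = 0.0206), -0.83 ± 0.13 for PFKP (adjusted p = 0.00248) and -1.20 ± 0.25 for CA12 (adjusted p = 0.0176). That of CA12 was -0.65 without the 22RV1 PBS pair and was not called by DESeq2's Wald test. Only PFKP and CA12 kept this call whichever pair was left out.

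PAGE4 and vector cells were also compared under H2O2 by fold change alone, the form in which DEGs were called in the study. With a limit of 1.5-fold, for members that averaged 10 or more normalized counts, 6 of 35 members passed in 22RV1 cells, all of them lower in PAGE4 cells, against 23.2% of 20264 genes in either direction. The share of all genes that were lower by this rule was not computed, so the shared direction is only described. With 1 library per condition this is a description of the libraries, and the 95% Clopper-Pearson intervals below cover counting error only. ADM had 297 counts in PAGE4 and 1126 in vector cells, a log2 fold change of -1.47 with an interval from -1.66 to -1.29. EGLN3 had 38 and 141 counts (-1.43 with an interval from -2.00 to -0.92), and PFKP 365 and 1139 (-1.19 with an interval from -1.37 to -1.02). CA12 was at -0.83 with an interval from -0.93 to -0.74, and ANKRD37, with 36 and 86 counts, at -0.80 with an interval from -1.41 to -0.23. NDRG1 passed narrowly at -0.59 with an interval from -0.70 to -0.49, and PFKFB3 (-0.57) and BNIP3 (-0.55) were just outside the limit. With PBS only CA12 (-1.87) and PFKP (-0.73) passed, and ADM (-0.03), EGLN3 (-0.11), NDRG1 (0.31) and ANKRD37 (0.42) did not. In DU145 cells 1 of 36 members passed under H2O2, against 15.2% of 18088 genes. It was SLC2A3, at 57 counts in PAGE4 and 36 in vector cells (0.66 with an interval from 0.04 to 1.31), and 0 passed with PBS. For the PBS libraries of either line the share over all genes was not computed.

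**Figure D5:**
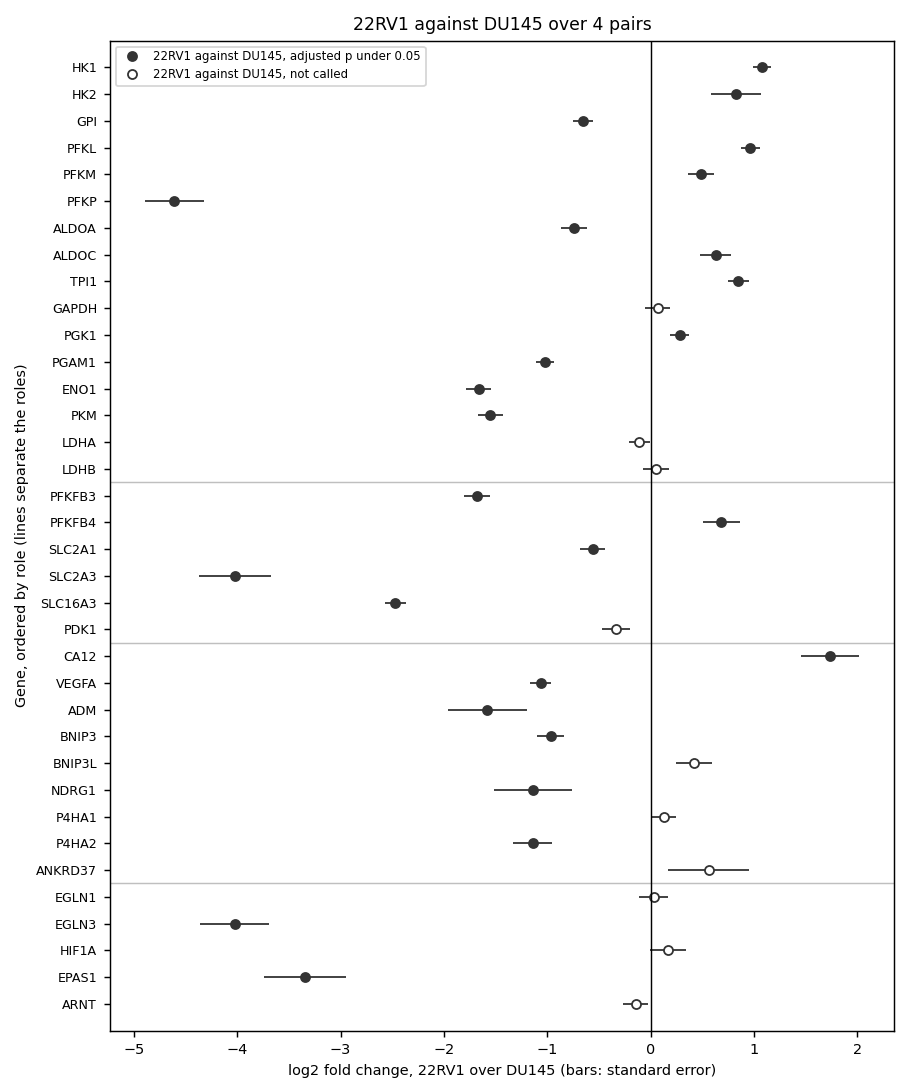
Log2 fold change of 22RV1 over DU145 for the 36 tested genes over 4 pairs of libraries matched for construct and treatment; bars are standard errors, and filled points have an adjusted p under 0.05. PFKP, EGLN3, SLC2A3 and EPAS1 lie more than 3 log2 units left of 0.

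The lines themselves differed in 26 of the 36 members, 9 higher and 17 lower in 22RV1 cells, against 33.1% higher and 30.1% lower among all 19784 genes. For 21 of the 36 tested members the 4 libraries of a line did not overlap with those of the other, as for 55.2% of all genes. PFKP had the largest difference: it ranged from 10.6 to 29.4 CPM in 22RV1 and from 324 to 477 CPM in DU145 cells (-4.61 ± 0.28, adjusted p = 8.15e-06). The other phosphofructokinase genes were higher in 22RV1 cells, PFKL by 0.96 ± 0.09 and PFKM by 0.49 ± 0.13. Per kilobase of exon, the median level in 22RV1 cells was 27.1 CPM for PFKL, 18.9 for PFKM and 1.98 for PFKP, and in DU145 cells it was 14.0, 13.2 and 52.2, so PFKP was the lowest of the 3 in 22RV1 cells and the highest in DU145 cells. EGLN3 was lower in 22RV1 cells by 4.02 ± 0.33, SLC2A3 by 4.02 ± 0.35 and EPAS1 by 3.34 ± 0.40. Counts on pseudogenes reached 18.4% of those of EGLN3 and 400% of those of SLC2A3, so these values are uncertain.

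Of the late steps of glycolysis, ENO1, the main enolase, ranged from 775 to 994 CPM in 22RV1 and from 2718 to 3056 CPM in DU145 cells (-1.66 ± 0.12), and PKM from 779.6 to 907 and 2129 to 2944 CPM (-1.55 ± 0.12). In 22RV1 cells SLC16A3 had 33.8 CPM with PBS and 34.4 CPM with H2O2 in vector cells, and 33.4 and 38.3 CPM in PAGE4 cells. In DU145 cells SLC16A3 had 169.5 CPM with PBS and 195 CPM with H2O2 in vector cells, and 201 and 209 CPM in PAGE4 cells. All 4 DU145 libraries were above all 4 of 22RV1. SLC16A3 (-2.47 ± 0.10) and PFKFB3 (-1.68 ± 0.12) were also lower in 22RV1 cells. Genes on the other side were CA12 (1.74 ± 0.28), HK1 (1.08 ± 0.09), HK2 (0.83 ± 0.24, lost without either PBS pair) and TPI1 (0.85 ± 0.10). ALDOC, the brain form of aldolase, was also higher in 22RV1 cells (0.63 ± 0.15, adjusted p = 0.00702). There it had 41.3 CPM with PBS and 59.4 CPM with H2O2 in vector cells, and 48.4 and 47.8 CPM in PAGE4 cells. In DU145 cells ALDOC had 37.7 CPM with PBS and 31.7 CPM with H2O2 in vector cells, and 30.1 and 27.3 CPM in PAGE4 cells. The libraries of the lines did not overlap. SLC2A1 was lower in 22RV1 cells (-0.56 ± 0.12, adjusted p = 0.00475). There it had 84.5 CPM with PBS and 111 CPM with H2O2 in vector cells, and 82.9 and 84.5 CPM in PAGE4 cells. In DU145 cells SLC2A1 had 119.6 CPM with PBS and 132 CPM with H2O2 in vector cells, and 155 and 127 CPM in PAGE4 cells. The libraries of the lines did not overlap. BNIP3 was lower as well (-0.97 ± 0.13, adjusted p = 0.000427), within the doubt from its pseudogenes. In 22RV1 cells it ranged from 25.4 to 39.5 CPM. In DU145 cells BNIP3 had 69.1 CPM with PBS and 58.0 CPM with H2O2 in vector cells, and 70.0 and 60.9 CPM in PAGE4 cells. The libraries of the lines did not overlap. HIF1A (0.17 ± 0.18) and ARNT (-0.15 ± 0.12) did not pass. On total counts the median of all genes moved from 0.07 to 0.27, and 11 members were then higher and 16 lower.

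Other genes of the same pathways were counted from lists of their own, and each count stands against 12.8% of all genes that rose and 14.9% that fell in 22RV1 cells and 16.9% and 19.8% in DU145 cells. Of 23 further glycolysis genes that were tested, 4 rose and 6 fell with H2O2 in 22RV1 cells, and 6 rose and 9 fell in DU145 cells. PDK4, a kinase of the PDK1 family, rose by 1.66 ± 0.10 in 22RV1 cells and fell by 2.77 ± 0.12 in DU145 cells, and its difference between the lines was 4.43 ± 0.16 (adjusted p = 6.77e-12). In DU145 cells it had 58.9 CPM with PBS and 7.90 CPM with H2O2 in vector cells, and 44.3 and 7.13 CPM in PAGE4 cells. TIGAR, a p53 target that lowers fructose 2,6-bisphosphate, rose by 1.98 ± 0.15 in 22RV1 cells (adjusted p = 5.03e-08). Its effect was larger there than in DU145 cells by 1.30 ± 0.21 (adjusted p = 0.000350). SLC16A7, another lactate carrier, and PDK2 fell in both lines.

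Of 29 further hypoxia targets, 8 rose and 10 fell with H2O2 in 22RV1 cells, and 8 rose and 8 fell in DU145 cells. DDIT4, an inhibitor of mTORC1 signalling that many stresses induce, rose by 1.83 ± 0.17 in 22RV1 and 1.73 ± 0.15 in DU145 cells (adjusted p = 4.23e-07 and 1.36e-07). STC2, a secreted glycoprotein, rose by 1.49 ± 0.12 and 2.03 ± 0.11. STC1, a related gene, rose by 2.70 ± 0.28 in DU145 cells, and BHLHE40, a transcriptional repressor, fell there by 1.26 ± 0.13. Of 8 further regulators of the HIF pathway, 2 rose and 1 fell in 22RV1 cells, and 4 rose and 0 fell in DU145 cells. CREBBP, a coactivator, rose in both (0.46 ± 0.09 and 0.82 ± 0.09), and VHL, whose product targets hydroxylated HIF alpha subunits for breakdown, rose by 0.50 ± 0.09 in DU145 cells. The pentose phosphate pathway, which branches from glycolysis at glucose 6-phosphate and makes NADPH, was counted over 8 genes: 1 rose and 2 fell in 22RV1 cells, and 1 rose and 4 fell in DU145 cells.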

How the data were processed

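RNA-seq libraries of 22RV1 and DU145 cells were compared by line, construct (vector or PAGE4) and treatment (PBS or H2O2), with groups taken from the sample labels. The deposited values were raw counts per gene, 1 table per line, which the authors made with HISAT2 2.1.0 and featureCounts 1.6.0 on GRCh38. The annotation, the strand setting and the handling of reads with several matches are not given in the sources used here, so members that overlap other genes or have pseudogenes are less certain.

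Counts were tested with edgeR 4.0.16 (TMM factors, filterByExpr with a minimum count of 10, quasi-likelihood test, matched pairs of libraries as blocks), and p-values were adjusted by Benjamini-Hochberg over all tested genes with a limit of 0.05. Fits common to the 4 pairs held 19784 genes, and fits by line held 22418. Fold changes of single libraries used DESeq2 1.42.0 size factors and a pseudocount of 0.5. Total counts of 25482984 to 43310401 leave counting error small except for CA9, SLC2A3, EGLN3 and ANKRD37. The test scripts were checked on simulated data. Alternatives were other scalings, no filter, DESeq2's Wald test, no pair blocks and each pair left out. All 37 members were named, with values by library or ranges for those called. The members, the lists and the promoter letters were chosen with earlier results of these data known.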

Additional observations from a re-analysis of the deposited data

Results flagged for a closer look

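In 16 cases the effect of H2O2 or of PAGE4 on a member differed between the lines by edgeR's test of the difference itself, given here on the log2 scale as the effect in 22RV1 cells minus the effect in DU145 cells. For H2O2 the response of the oxygen sensing genes differed by 1.91 for EPAS1, 0.51 for EGLN1, 0.42 for ARNT and -0.83 for HIF1A. Among the glycolytic enzymes it was 0.94 for PFKP, 0.44 for ALDOA, 0.38 for GAPDH, 0.35 for PKM and -1.21 for HK2. Among the other hypoxia targets it was 1.59 for ADM, 0.76 for BNIP3L and -1.81 for NDRG1. EPAS1 and PFKP were called in opposite directions in the lines. HK2, NDRG1, BNIP3L, EGLN1, ALDOA, GAPDH and PKM were called in DU145 cells alone, HIF1A and ARNT in 22RV1 cells alone, and ADM rose in both.

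For PAGE4 the difference was 0.51 for PFKM, 0.46 for LDHB, -0.83 for PFKP and -1.20 for CA12. Each of these was called in 22RV1 cells and not in DU145 cells. With 1 transduced population named per line and construct, an effect of PAGE4 and another difference between these populations cannot be told apart.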

How the results depend on the processing

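No called value of a single gene changed sign under the alternatives run, but on total counts the members that changed with H2O2 in 22RV1 cells went from 8 higher and 9 lower to 13 higher and 5 lower. For single genes, 96 called values were recomputed 718 times, of which 620 kept the call, 98 lost it and 0 reversed, and 32 values lost the call with 1 pair left out. Their DESeq2 Wald test and their fit without pair blocks were chosen after seeing the data.

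Without a filter on low counts, 13 members in place of 8 changed with H2O2 over the 4 pairs, and 2 in place of 0 changed with PAGE4. Over all genes the calls went from 4545 of 19784 to 5837 of 41771 with H2O2, and from 27 to 483 with PAGE4. Without pair blocks, 7 members in place of 12 differed between the lines in their H2O2 response, and 1926 in place of 3655 of all genes did. DESeq2's Wald test called 12 members with H2O2 over the 4 pairs, and 5679 of all genes in place of 4545. With each pair left out in turn, members changed with H2O2 numbered 3 to 6 over the 4 pairs and 15 to 24 in DU145 cells, the lowest without the DU145 vector pair. Members changed with PAGE4 in 22RV1 cells numbered 5 to 10, and those whose PAGE4 effect differed between the lines 2 to 10, the highest without the 22RV1 PBS pair and the lowest without the DU145 PBS pair. Without the 22RV1 PBS pair, the calls over all genes rose as well in both of these comparisons. That fit leaves a lone 22RV1 pair, so nothing is concluded from its counts. For the comparison by fold alone, a limit of 2-fold left 3 members in 22RV1 and 0 in DU145 cells, and the PBS libraries gave 2 and 0. Without a count minimum, 2 members passed in DU145 cells. The causes were not tested.

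Pairs were matched by line and construct or treatment, since the labels carry no replicate numbers. Where 1 pair of a line was left out, the lone pair was taken to vary like the others. Depth left a change in CA9 undetectable.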
